A study of Mus musculus with 47 samples.

Results

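MHC class II genes were followed in the bulk RNA-seq of this melanoma series. The 8 genes were chosen by symbol from the 56748 genes of the count table, with earlier results of these data known. They were the classical chains H2-Aa, H2-Ab1 and H2-Eb1, the invariant chain Cd74, the transactivator Ciita, the peptide exchange chains H2-DMa and H2-DMb1, and the protease Ctss. All 8 passed the filter on low counts in the tumors, and 2 of the 8 passed it in the cultured cells.

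The study placed truncating mutations in Mt-Nd5, a mitochondrial gene for a subunit of respiratory complex I, into B78-D14 melanoma cells with a mitochondrial base editor, and grew the cells as tumors. B78-D14 is a mouse melanoma line that grows in C57BL/6 mice. There were 4 control tumors, 7 tumors from cells labelled m.12436 at 60% heteroplasmy and 7 at 40% heteroplasmy, where heteroplasmy is the share of mitochondrial genomes that carry the mutation. There were also 4 cultures of control cells and 4 of cells labelled m.11944 at 60%. All tumors used here were untreated according to their labels, and the study's methods describe subcutaneous injection into male C57BL/6 mice. A tumor library therefore held RNA of the melanoma cells and of the cells of an immunocompetent host. The edits change single bases, so gene counts give no check of the labels. Which columns held the m.11944 60% cultures and the m.12436 tumors was inferred, since their names do not repeat the labels, the former through a code in a heading of the study's source data, the latter through the words high and low and numbers that reach 7. The study's methods describe sorting of the transfected cells, and whether an edited line came from a single clone is not given in the sources used here.

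MHC class II molecules present peptides taken up from outside the cell to CD4+ T cells. The alpha and beta chains assemble with the invariant chain, which Ctss and other proteases trim in the endosome, and the H2-DM heterodimer then exchanges the remaining fragment for a peptide. The genes are known for high levels in dendritic cells, macrophages and B cells, and for induction by interferon gamma in other cells through Ciita, which does not bind DNA itself but is recruited by factors that sit on the X and Y boxes of class II promoters.

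The promoters are shown because they carry the sequence through which Ciita is known to act. In the window from 250 bases before to 50 bases after the annotated start of the canonical transcript, an X box core (AGNNACNGA) followed 10 to 30 bases later by a Y box (ATTGG), on the strand of the gene, was found for H2-Ab1, H2-Eb1 and H2-DMa among the 8 genes. Of 21770 protein-coding genes with such a window, 0.156% held the pair on that strand and 0.335% on either strand. The letters were taken from what is known of class II promoters, so a match there is a description and not a test. The X box is in the first run of capitals and the Y box in the second, 5′ to 3′ on the strand of the gene, in GRCm39. H2-Ab1 is at chr17:34482103-34482180 (plus strand), H2-Eb1 at chr17:34524729-34524806 (plus strand) and H2-DMa at chr17:34354467-34354545 (plus strand). The H2-Aa stretch, at chr17:34506821-34506898 (minus strand), held the Y box alone under these letters.
H2-Ab1: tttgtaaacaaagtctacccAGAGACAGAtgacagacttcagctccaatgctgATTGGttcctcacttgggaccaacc
H2-Eb1: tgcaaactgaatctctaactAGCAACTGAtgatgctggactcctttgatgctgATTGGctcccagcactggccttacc
H2-DMa: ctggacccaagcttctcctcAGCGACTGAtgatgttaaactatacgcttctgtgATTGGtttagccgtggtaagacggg
H2-Aa: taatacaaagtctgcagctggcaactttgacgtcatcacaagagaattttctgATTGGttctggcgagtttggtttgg

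The spacing was alike in the 3 matched promoters. In H2-Ab1 and H2-Eb1, 24 bases lay between the boxes, and in H2-DMa 25 bases did. The X box began 60, 64 and 73 bases before the start of the canonical transcript of H2-Ab1, H2-Eb1 and H2-DMa, which lies inside the gene's annotated extent where other transcripts begin upstream. An X box core on either strand, with or without a Y box, was in 16.7% of all promoters. A Y box, with or without an X box, was in 39.9%. Beyond the 3 matched promoters, the X box core was found for H2-DMb1 and the Y box for H2-Aa and Cd74. H2-Aa, H2-Ab1, H2-Eb1, H2-DMa and H2-DMb1 lie within 197 kb of chromosome 17, while Ciita is on chromosome 16, Ctss on chromosome 3 and Cd74 on chromosome 18. The annotated extents of H2-Aa and H2-Eb1 overlap on opposite strands, and whether the counting used strand is not given in the sources used here, so a part of their reads may be shared.

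The libraries held 16475735 to 31218475 counts in the tumors and 25249060 to 36173502 in the cultures. Levels are given as CPM, counts scaled to a fixed library total, after TMM scaling, which evens out differences in library composition. Melanocyte genes were sparse in the cultures, where 6 of 7 such genes stayed under 1 CPM in every library, among them Tyr, Mlana and Dct. Control tumor 3 stood apart. Its melanocyte lineage genes summed to 66.2 CPM against a median of 26 CPM over the control tumors, and it had the lowest or second lowest level of every class II gene among the 18 tumors. Values without it are given where it ended a call, turned a sign or moved an estimate or count by over 1.5 times.

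In cultured cells the classical class II genes were close to absent. H2-Aa had 1 count in the 4 control cultures together and 0 in the 4 m.11944 60% cultures. H2-Ab1, the beta chain of I-A, had 1 to 3 counts in each control culture and 0, 2, 0 and 2 counts in the m.11944 60% cultures. H2-Eb1 had 0 to 1 and 0 to 4 counts, Ciita 0 to 1 and 0, and Ctss 0 to 2 and 0. A count of 0 over the 4 m.11944 60% cultures allows a level of up to 0.0266 CPM (3 counts, counting error only). Cd74 reached 0.841, 0.982, 0.0284 and 0.136 CPM in control cultures 1 to 4 and 0.0274 to 0.667 CPM in the m.11944 60% cultures. In both culture groups Cd74 thus spread widely between libraries, and the groups overlapped.

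The H2-DM chains were the exception. H2-DMa was at 2.49, 2.65, 1.51 and 1.15 CPM in the control cultures and at 2.20, 1.81, 1.27 and 1.23 CPM in the m.11944 60% cultures. These groups overlapped, and the log2 fold change was -0.26 (SE 0.34, edgeR adjusted p = 1.00). H2-DMb1 was at 0.841, 1.56, 0.682 and 1.22 CPM in the control cultures and at 3.26, 3.05, 1.84 and 2.05 CPM in the m.11944 60% cultures. All 4 m.11944 60% values lay above all 4 control values. Over the 12930 genes tested, 3.48% did not overlap between these groups. The log2 fold change of H2-DMb1 was 1.24 (SE 0.33, 95% CI 0.49 to 1.99), with an unadjusted p of 0.0048, which 1.85% of genes reached in this direction, and an edgeR adjusted p of 0.824. No member was called in the cultures, where 0.0387% of genes were called at an adjusted p under 0.1. The replicate numbers paired these cultures. A fit blocked on that number left the H2-DMb1 estimate at 1.24 and lowered its edgeR adjusted p to 0.028, in a fit that called 7.11% of genes, and DESeq2 without the block gave an adjusted p of 0.0706 and called 0.650% of genes. The counts behind these values were 23 to 43 per control culture and 48 to 83 per m.11944 60% culture.

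All 8 genes were far higher in the tumors grown from control cells than in control cells in culture. On a joint scale, Cd74 averaged 358 ± 208 CPM (SD, n = 4) in control tumors and 0.542 ± 0.529 CPM (SD, n = 4) in control cultures. H2-Ab1 averaged 176 ± 103 CPM against 0.0757 ± 0.0358 CPM, and Ctss 228 ± 61.1 CPM against 0.0292 ± 0.0382 CPM. Pooled over libraries, the ratio of CPM was 881 for Cd74 (95% counting interval 677 to 1170) and 2997 for H2-Ab1 (1521 to 6942). For H2-Aa, H2-Eb1, Ciita and Ctss the cultures held 1 to 3 counts in all, and the counting intervals of the ratio spanned 2248 to 494973, 3073 to 676420, 265 to 58490 and 3496 to 49553. The ratios of H2-DMa and H2-DMb1 were smaller, at 13.8 (12 to 15.8) and 21.2 (17.7 to 25.5). Every control tumor lay above every control culture for each of the 8 genes, as it did for 32.5% of the 15047 genes tested. An exact two-sided permutation test gave p = 0.0286 for each gene, the smallest value that 4 against 4 samples allow. The leukocyte gene Ptprc, which encodes CD45, had 0 counts in all 4 control cultures and 51.0 to 95.8 CPM in the control tumors, and its part in these differences was not tested. In a tumor library a smaller number of cells of a type and less RNA per cell cannot be told apart.

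**Figure D1:**
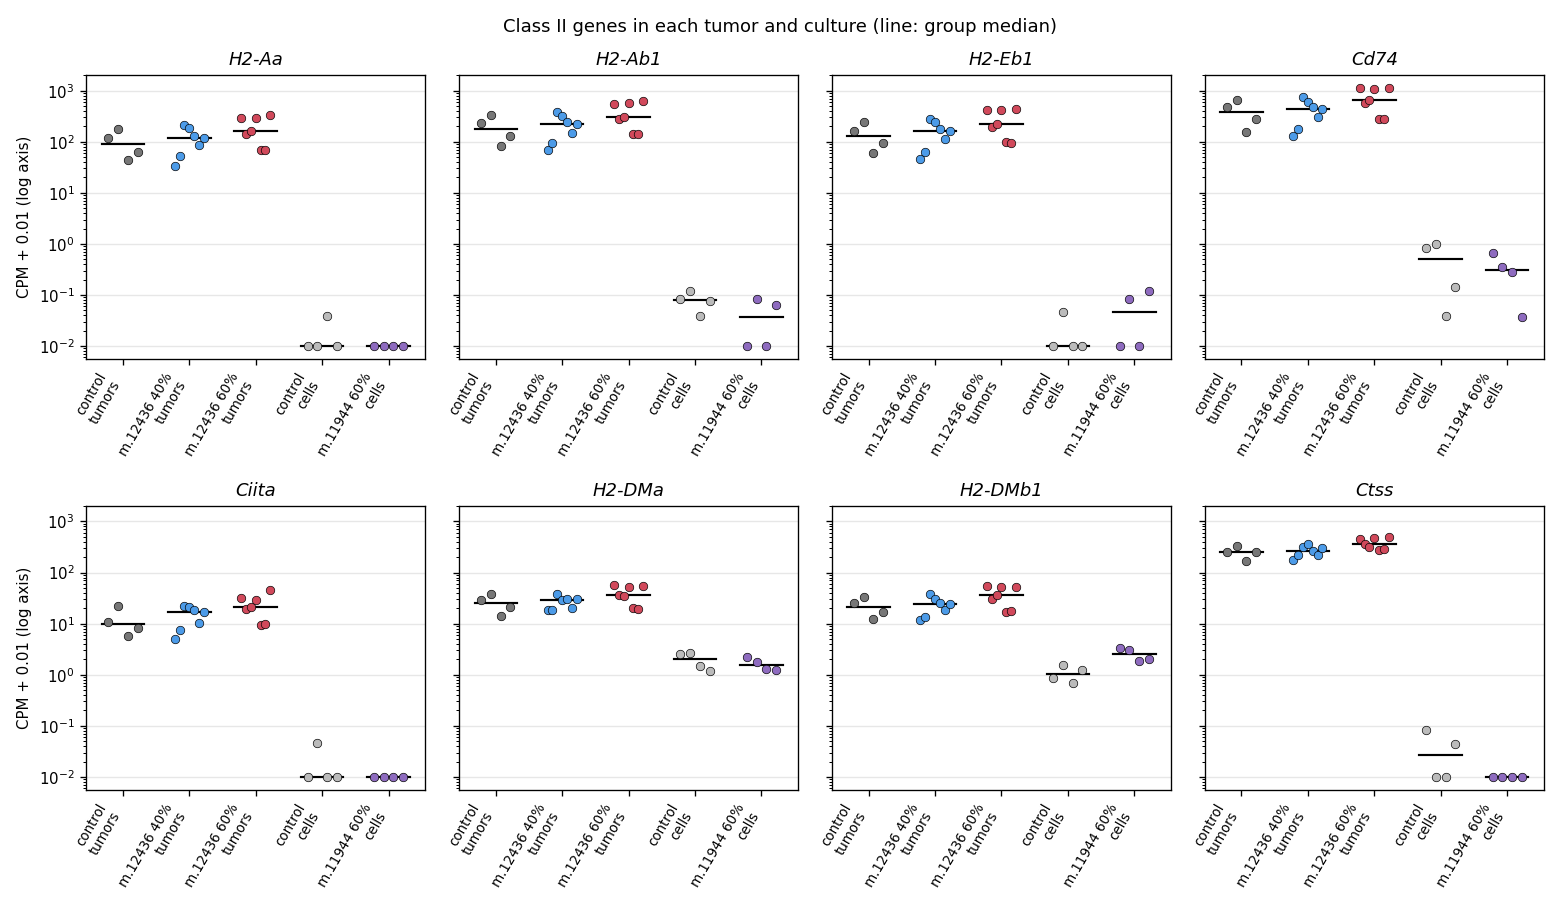
CPM of the 8 class II genes plus an offset of 0.01 on a log axis, 1 point per library, with the median of each of the 5 groups as a line. The tumors span about an order of magnitude for the chains, Cd74 and Ciita and lie above the cultures for every gene, while H2-DMb1 is the gene whose 2 culture groups separate.

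Within the tumors the class II genes were among the most variable genes of the table. H2-Aa ranged from 33.1 to 334 CPM over the 18 tumors, a 10.1-fold range. The ranges were 8.88-fold for H2-Ab1, 9.45-fold for H2-Eb1, 8.70-fold for Cd74 and 9.14-fold for Ciita. They were narrower for H2-DMa (4.03-fold), H2-DMb1 (4.56-fold) and Ctss (2.98-fold). After group means were removed, the SD of log2 CPM was 0.91 for H2-Ab1 and 0.83 for Ciita against a median of 0.15 over the 12317 genes with a mean of at least 1 log2 CPM. The 8 SDs lay between the 89.6 and 99.4 percentiles of these genes, with Ctss the least and H2-Aa the most variable. The same tumors held the extremes. The m.12436 60% tumors 1, 4 and 7 were the 3 highest for all 8 genes, and m.12436 40% tumors 1 and 2 and control tumor 3 the 3 lowest.

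The relative levels of the classical chains and Cd74 were far steadier than the levels themselves, which did not hold for Ctss relative to H2-Ab1. Per kilobase of annotated exon, the mean over the 18 tumors was 211 ± 129 CPM per kb for Cd74, 105 ± 65.9 for H2-Ab1, 75.6 ± 48.2 for H2-Eb1, 58.0 ± 17.5 for Ctss and 33.5 ± 21.3 for H2-Aa (SD, n = 18). H2-DMb1 averaged 16.8 ± 8.08, H2-DMa 7.21 ± 2.98 and Ciita 1.58 ± 0.951 CPM per kb. These lengths join the exons of all annotated transcripts, so a gene with long minor transcripts, such as H2-Aa, is set lower. Within a tumor the log2 ratio of Cd74 to H2-Ab1 per kb was 1.01 ± 0.07 (SD, n = 18), which puts Cd74 at 2.01 times H2-Ab1 on average. The log2 ratio of H2-Eb1 to H2-Ab1 was -0.50 ± 0.06 and that of H2-Aa to H2-Ab1 -1.67 ± 0.08, both steadier than the log2 ratio of H2-DMa to H2-Ab1 (-3.70 ± 0.42) or of Ctss to H2-Ab1 (-0.64 ± 0.57). The last ratio ran from -1.35 to 0.33, because Ctss varied less than the chains did. H2-Ea, which encodes the alpha chain that pairs with H2-Eb1, had 0 counts in all 26 libraries. C57BL/6 mice are known to lack a working H2-Ea promoter.

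The first tumor comparison asked whether class II transcripts differed between m.12436 60% and control tumors. H2-Ab1 was at 228, 337, 82.3 and 129 CPM in control tumors 1 to 4. In the m.12436 60% tumors its lowest, median and highest values were 141, 307 and 615 CPM. The groups overlapped, and 3 of the 7 m.12436 60% tumors lay above every control tumor. The log2 fold change was 0.94 (SE 0.54, 95% CI -0.19 to 2.08), with an edgeR adjusted p of 0.402.

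Cd74, the chaperone of the class II chains, was at 481, 668, 153 and 277 CPM in the control tumors. In the m.12436 60% tumors its lowest, median and highest values were 274, 649 and 1142 CPM. Its log2 fold change was 0.89 (SE 0.53, edgeR adjusted p = 0.425), and again 3 of 7 tumors lay above all controls. H2-Aa and H2-Eb1 gave log2 fold changes of 0.95 and 0.96, with edgeR adjusted p-values of 0.416 and 0.412. The chains and Cd74 thus had estimates close to 1 on the log2 scale with intervals that included 0.

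Ciita, the master regulator, was at 10.9, 22.2, 5.73 and 8.36 CPM in the control tumors. Its lowest, median and highest values in the m.12436 60% tumors were 9.44, 20.8 and 44.7 CPM. It had the highest estimate of the 8 genes, a log2 fold change of 1.01 (SE 0.50, 95% CI -0.05 to 2.06, edgeR adjusted p = 0.330). H2-DMa and H2-DMb1, the peptide exchange chains, gave 0.61 (SE 0.33, edgeR adjusted p = 0.366) and 0.77 (SE 0.39, edgeR adjusted p = 0.341).

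Ctss, the protease that trims the invariant chain, was at 256, 329, 168 and 255 CPM in the control tumors. Its lowest, median and highest values in the m.12436 60% tumors were 282, 358 and 501 CPM. The log2 fold change of Ctss was the smallest of the 8 at 0.60, but its error was also the smallest (SE 0.21, 95% CI 0.16 to 1.04), and 4 of 7 tumors lay above all controls. The unadjusted p was 0.0108 and the edgeR adjusted p 0.169.

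No member was called at an adjusted p under 0.1 in this comparison, where 2.31% of the 16213 genes tested were called. All 8 estimates were positive, with a median of 0.92 against -0.0025 over all genes tested, and 1 of 8, Ctss, had an unadjusted p under 0.05, which 8.0% of genes reached in this direction. The 8 genes rise and fall together across tumors, so the 8 signs are not independent of each other. DESeq2 called Ctss (adjusted p = 0.0581) and called 6.51% of genes. With edgeR the estimates depended on single controls. Without control tumor 2, which had the highest level of all 8 genes among the controls, edgeR gave Ctss an adjusted p of 0.0976 and called 4.36% of genes, and the log2 fold change of H2-Ab1 was 1.35 (adjusted p = 0.248). In that fit every member but Cd74 (unadjusted p = 0.0515) had an unadjusted p under 0.05, from 0.00409 for Ctss to 0.0476 for H2-Eb1. Of the 16430 genes tested there, 1588 were higher by that rule. Without control tumor 3 the log2 fold changes of H2-Ab1 and Ctss were 0.69 and 0.45 (adjusted p = 0.758 and 0.563), and those of the 8 genes lay between 0.42 and 0.78, with none at an unadjusted p under 0.05.

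**Figure D2:**
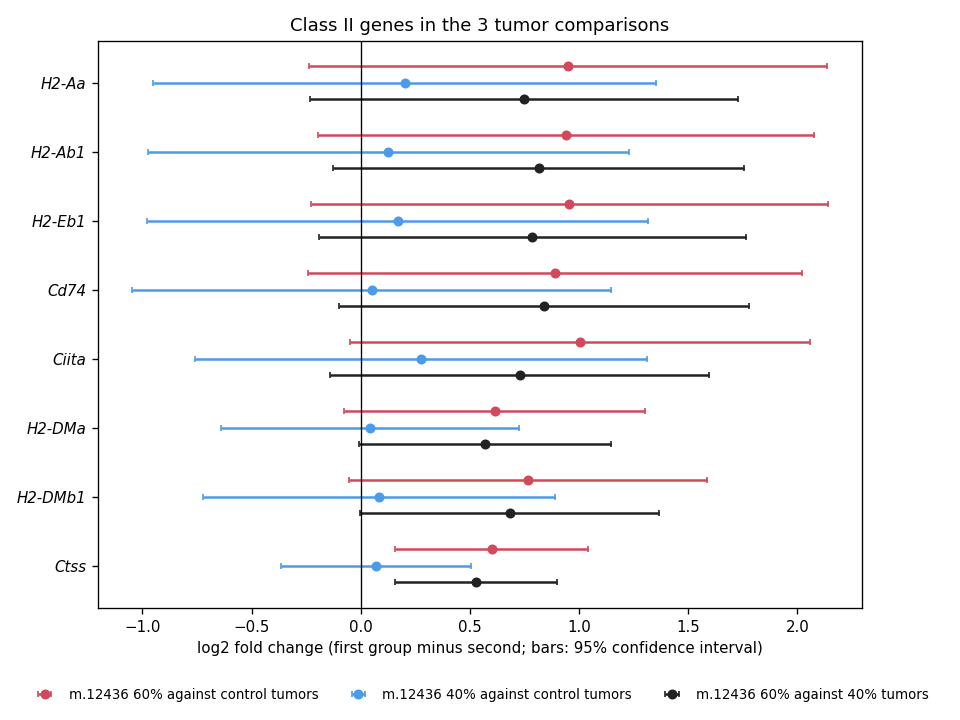
Log2 fold changes of the 8 class II genes in the 3 tumor comparisons, with 95% confidence intervals from the edgeR fit. In both comparisons of m.12436 60% tumors the estimates lie above 0, between 0.53 and 1.01, and Ctss is the gene whose intervals exclude 0 before adjustment, while the m.12436 40% estimates lie between 0.04 and 0.28.

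The m.12436 40% tumors were closer to the control tumors. H2-Ab1 had a lowest, median and highest level of 69.2, 223 and 384 CPM, and 1 of 7 tumors lay above every control. Its log2 fold change was 0.13 (SE 0.52, 95% CI -0.98 to 1.23, edgeR adjusted p = 0.991). Ciita had the highest estimate, 0.28 (SE 0.49, edgeR adjusted p = 0.976), and Ctss gave 0.07 (SE 0.21, 95% CI -0.36 to 0.51, edgeR adjusted p = 0.987). Without control tumor 2 the Ciita estimate was 0.80 (edgeR adjusted p = 0.741). For the chains and Cd74 an interval of about 1 log2 unit on either side remains, so differences of that size could not be set aside. The comparison called 0% of genes, members included, and no member had an unadjusted p under 0.05, against 2.24% of genes that were higher by that rule. The sign rested on control tumor 3, since without it 7 of the 8 estimates were below 0, H2-Ab1 at -0.12 and Cd74 at -0.21 (adjusted p = 1.00 for both), and Ciita stayed at 0.05.

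In the direct comparison of the mutant groups, m.12436 60% against 40% tumors, the estimates were again positive. H2-Ab1 gave a log2 fold change of 0.82 (SE 0.44, edgeR adjusted p = 0.429) and Cd74 0.84 (SE 0.44, edgeR adjusted p = 0.413). H2-DMa and H2-DMb1 gave 0.57 and 0.68 with unadjusted p-values of 0.0531 and 0.0503. Ctss gave 0.53 (SE 0.18, 95% CI 0.16 to 0.90), with an unadjusted p of 0.00777 and an edgeR adjusted p of 0.175. No member was called, against 1.81% of genes, and 1 of 8 had an unadjusted p under 0.05, which 6.97% of genes reached in this direction. DESeq2 called Ctss (adjusted p = 0.0611) in a fit that called 4.59% of genes. This comparison and the first share the m.12436 60% tumors, so their values are not independent. Markers of skeletal muscle ran the other way. The 5 genes summed to a median of 2.51 CPM in the m.12436 60% tumors (2.28 to 225), 115 CPM in the m.12436 40% tumors (39.0 to 194) and 63.5 CPM in the control tumors (2.29 to 142). All 5 estimates were negative in m.12436 60% against 40% tumors, with a median of -0.71 and 0 called, and their part in the class II values was not tested.

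Most lists of leukocyte markers had a higher median sum in m.12436 60% than in control tumors, and the B cell list a lower one. Few single markers were called. Ptprc was at 68.2, 95.8, 51.0 and 77.0 CPM in the control tumors and at 81.3 to 154 CPM in the m.12436 60% tumors, with a log2 fold change of 0.61 (SE 0.19, edgeR adjusted p = 0.135). The 6 T cell markers summed to a median of 12.7 CPM in the control tumors (6.32 to 23.5), 22.1 CPM in the m.12436 60% tumors (8.09 to 47.2) and 13.5 CPM in the m.12436 40% tumors (6.02 to 19.1). The 10 macrophage markers summed to medians of 1509 CPM (1331 to 1623), 1772 CPM (1166 to 1987) and 1444 CPM (1311 to 1633). Among them Itgam, which encodes CD11b, rose in m.12436 60% tumors against control tumors by 0.38 on the log2 scale (edgeR adjusted p = 0.0261) and against m.12436 40% tumors by 0.42 (edgeR adjusted p = 0.00611). The first call was lost without control tumor 1 (0.32, adjusted p = 0.114), and both were lost with Ptprc in the fit (adjusted p = 0.521 and 0.123). Of the 10 markers, 3 were higher and 1 lower at an unadjusted p under 0.05 against control tumors. The lower one, chosen here after its values were seen, was Mrc1, the macrophage mannose receptor, at 98.5 to 255 CPM in the control tumors and 26.1 to 143 CPM in the m.12436 60% tumors (log2 fold change -0.79, edgeR adjusted p = 0.299), and at -0.32 without control tumor 3. Conventional dendritic cell markers summed to medians of 52.1 CPM (44.9 to 62.9), 70.7 CPM (42.9 to 80.1) and 57.7 CPM (42.2 to 67.6). B cell markers stayed low and were highest in the control tumors. They summed to medians of 7.17 CPM (5.65 to 9.50) in control tumors, 3.85 CPM (2.69 to 6.71) in m.12436 60% tumors and 4.80 CPM (3.98 to 6.50) in m.12436 40% tumors. The same genes summed to 1.63 to 2.69 CPM in the control cultures. Ms4a1, which encodes CD20, did not exceed 0.313 CPM in any tumor. Pax5, which is on the B cell list, fell in m.12436 60% against control tumors (log2 fold change -1.12, edgeR adjusted p = 0.0256). It was also the 1 of the 7 B cell markers tested in the cultures, which held almost no Ptprc counts. There it gave -0.51 in m.11944 60% against control cells and was not called. Of the other markers, Pmel fell in m.12436 60% against control tumors (-2.21, edgeR adjusted p = 0.0456). Pmel was at 8.79 CPM in control tumor 3 and lost its call without that tumor (-0.56, adjusted p = 0.559).

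When the log2 CPM of Ptprc was added to the fit as a covariate, the estimates for the class II genes changed sign. In m.12436 60% against control tumors, H2-Ab1 went from 0.94 to -0.61 (SE 0.37, 95% CI -1.40 to 0.18), Ciita from 1.01 to -0.43 (95% CI -1.0 to 0.14) and Ctss from 0.60 to -0.03 (95% CI -0.22 to 0.16). The 8 estimates lay between -0.70 and -0.03, with edgeR adjusted p-values of 0.745 or more. In m.12436 60% against 40% tumors 7 of the 8 were below 0 and Ctss was at 0.04. With the mean of the macrophage markers as the covariate the estimates stayed positive, H2-Ab1 at 0.63 (95% CI -0.45 to 1.70) and Ctss at 0.49 (95% CI 0.09 to 0.90, edgeR adjusted p = 0.175). A covariate measured in the same library can itself differ between the groups, so these fits describe levels at equal Ptprc or equal macrophage markers.

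**Figure D3:**
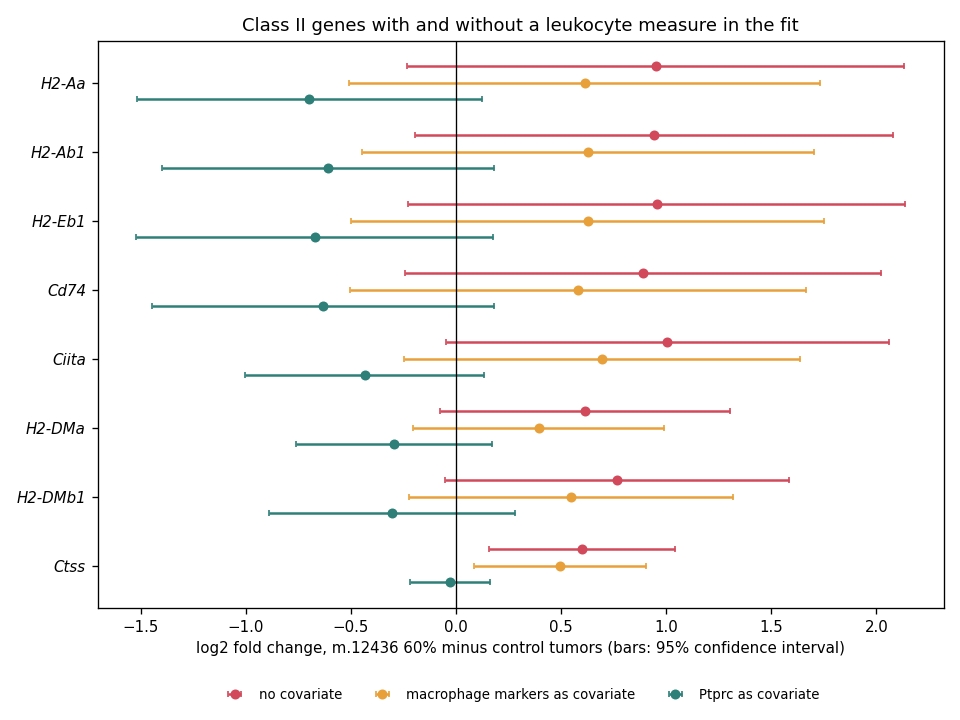
Log2 fold changes of the 8 class II genes in m.12436 60% against control tumors with no covariate, with macrophage markers and with Ptprc in the fit (points, with 95% confidence intervals). The estimates lie above 0 without Ptprc and at or below 0 with Ptprc, from -0.70 for H2-Aa to -0.03 for Ctss.

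Across the 18 tumors the class II genes rose and fell as a unit. After group means were removed, H2-Ab1 correlated with H2-Eb1 at Pearson r = 0.999 (Spearman rho = 0.990) and with Cd74 at r = 0.997 (rho = 0.994). The r with Ciita was 0.980, with H2-DMb1 0.993, with H2-DMa 0.954 and with Ctss 0.937. Each had a within-group permutation p of 1e-05, the smallest that 100000 resamples can give, and an adjusted p of 2e-05 over the 15 relations computed. Without the 2 tumors farthest from the median of each measure, r stayed at 0.918 or more for these genes. All measures came from the same libraries, so a sample with more of one cell type raises several of them together.

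Measures of T cells and interferon gamma followed H2-Ab1 more closely than macrophage markers did. The r with the mean of the T cell markers was 0.942 (rho = 0.893, permutation p = 1e-05, adjusted p = 2e-05). The r with Ifng, the interferon gamma gene, was 0.927 (rho = 0.899), although Ifng reached no more than 1.12 CPM in any tumor. Ptprc gave 0.870 (rho = 0.822, permutation p = 5e-05). The conventional dendritic cell markers gave 0.832 (rho = 0.810, permutation p = 7e-05) and the mature dendritic cell markers 0.653 (rho = 0.633, permutation p = 0.00421, adjusted p = 0.00486). For the macrophage markers r was 0.452 (rho = 0.408, permutation p = 0.0707, adjusted p = 0.0758). That relation rested on a few tumors, since r fell to 0.225 without the 2 farthest, and it was 0.774 within the 7 m.12436 60% tumors and -0.158 within the 7 m.12436 40% tumors. The B cell markers gave 0.383 (rho = 0.443, permutation p = 0.142). Within the m.12436 60% and the m.12436 40% tumors the r with the T cell markers was 0.992 and 0.955, and that with Ptprc 0.946 and 0.821. Whether r differed between measures was not tested.

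**Figure D4:**
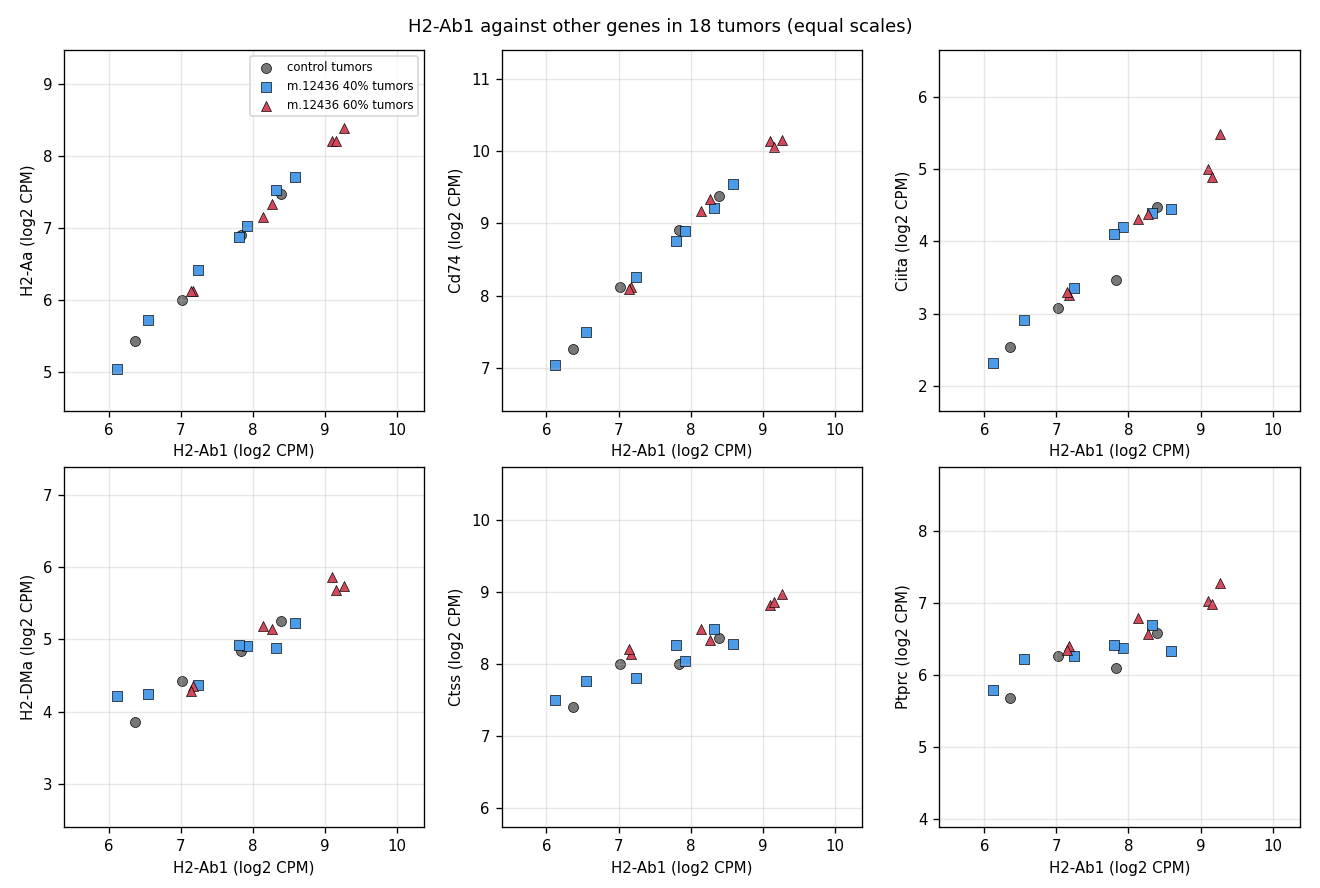
Log2 CPM of H2-Aa, Cd74, Ciita, H2-DMa, Ctss and Ptprc against that of H2-Ab1 in the 18 tumors, with equal scales on both axes and a symbol for each of the 3 groups. H2-Aa and Cd74 lie on a line of slope near 1, while H2-DMa, Ctss and Ptprc rise less steeply, and the 3 groups lie along the same line.

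**Figure D5:**
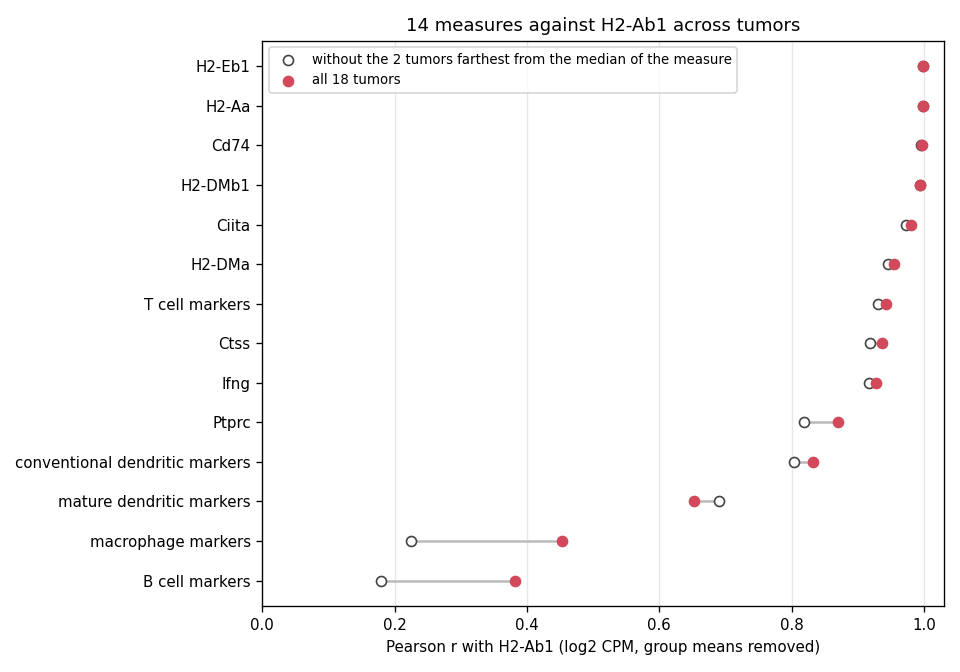
Pearson r of 14 measures with H2-Ab1 over 18 tumors with group means removed (filled points) and without the 2 tumors farthest from the median of the measure (open points). Class II genes, T cell markers and Ifng lie above 0.9, and macrophage and B cell markers are lowest, at 0.452 and 0.383, and drop further without 2 tumors.

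Among 12316 other genes with a mean of at least 1 log2 CPM, 6 of the 10 with the highest r to H2-Ab1 were class II genes: H2-Eb1, H2-Aa, Cd74, H2-DMb1 and Ciita held the first 5 places and H2-DMa the ninth (r = 0.954). Also among the 10 were Plbd1 (r = 0.971), the guanylate-binding protein gene Gbp8 (r = 0.954) and Tapbpl, a peptide editor of MHC class I (r = 0.954). Ctss was fifteenth. Neighbours in this order differed by small steps and their order is not established. Ptprc ranked 73. The macrophage markers that were looked up spread widely in this order. C1qa ranked 357 (r = 0.704), Csf1r, the receptor that marks macrophages, 908 (r = 0.510) and Adgre1, which encodes F4/80, 1694 (r = 0.356).

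The list of other class II pathway genes held 40 genes in 6 groups. Of the 39 tested in m.12436 60% against control tumors, 0 were called, against 2.31% of all genes. At an unadjusted p under 0.05, 11 were higher, against 8.0% of all genes, and 2 were lower, against 8.31%, with a median log2 fold change of 0.16 against -0.0025 over all genes tested. Together 13 of 39 reached that p, against 16.3% of all genes, and 5 did without control tumor 3, against 8.95% of genes. Among the other class II chains, H2-Ob, the beta chain of the H2-DM inhibitor H2-O, was at 1.93, 2.40, 1.45 and 1.87 CPM in the control tumors and at 2.48 to 4.54 CPM in the m.12436 60% tumors. These values did not overlap, as was so for 4.07% of genes, with a log2 fold change of 0.80 (SE 0.29, edgeR adjusted p = 0.172). H2-DMb2, a close copy of H2-DMb1 whose reads the counting could split, gave 0.48 (SE 0.26, edgeR adjusted p = 0.366), and its level per kb was 0.149 times that of H2-DMb1 in the mean over tumors.

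Regulators of class II transcription held the calls of the pathway. Irf1, which is induced by interferon gamma and acts on the Ciita promoter, was at 110, 108, 79.9 and 108 CPM in the control tumors and at 106 to 172 CPM in the m.12436 60% tumors. It rose in m.12436 60% against 40% tumors by 0.47 on the log2 scale (SE 0.12, edgeR adjusted p = 0.0888). Irf8, a factor of dendritic cell and macrophage development, rose in the same comparison by 0.46 (SE 0.12, edgeR adjusted p = 0.0828). Against control tumors both had estimates of 0.47 with edgeR adjusted p-values of 0.134 and 0.130. These were 2 of 12 genes in that group and 2 of the 39 pathway genes tested, in a comparison that called 1.81% of all genes. With Ptprc in the fit both calls were lost (adjusted p = 0.680 for Irf1 and 0.633 for Irf8). Both calls were also lost without control tumor 1 or 4, without m.12436 60% tumor 1, 2, 3, 4 or 7, or without m.12436 40% tumor 1, 2 or 6. The Irf1 call was lost in addition without control tumor 2 or m.12436 40% tumor 5, and the Irf8 call without m.12436 40% tumor 3, and with a tumor left out the edgeR adjusted p ran from 0.0564 to 0.182 for Irf1 and from 0.0512 to 0.174 for Irf8.

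With all tumors in the edgeR fit, the remaining groups had no call in any tumor comparison. Among the proteases and their partners, Ctsd, an aspartic protease of the lysosome, gave -0.19 in m.12436 60% against control tumors (SE 0.08, edgeR adjusted p = 0.25), and Sppl2a, which clears the membrane stub of the invariant chain, 0.21 (SE 0.08, edgeR adjusted p = 0.218). Of the ligases that turn over surface class II, Marchf1 gave 0.36 (SE 0.16, edgeR adjusted p = 0.282) and Marchf8 -0.07 (SE 0.05, edgeR adjusted p = 0.483). Marchf1 was at 0.56 without control tumor 2 and was called there (edgeR adjusted p = 0.0808), in a fit that called 4.36% of genes. It was at 0.25 without control tumor 3. In interferon gamma signaling, Jak2 gave 0.20 and Ifngr1 0.22, both with an edgeR adjusted p near 0.33. Without control tumor 3 the values were -0.12 for Ctsd, 0.13 for Jak2 and 0.14 for Ifngr1. Among genes of T cell contact, Cd83, which protects surface class II from turnover, gave 0.77 (SE 0.30, edgeR adjusted p = 0.211) and the costimulatory ligand Cd86 0.54 (SE 0.22, edgeR adjusted p = 0.224). In m.12436 40% against control tumors none of the 39 was called, and 2 had an unadjusted p under 0.05, both lower, against 2.85% of all genes that were lower by that rule. Without control tumor 3 it was 1.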

How the data were processed

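Bulk RNA-seq of tumors and cultured cells was used. Per the study's methods, the authors used STAR to map reads to GRCm39 and featureCounts to assign them to genes, and they deposited unnormalized counts. Of the 47 columns, 26 were used and 21 were not. The control columns carry that word and a number, 001 to 004 as in the labels of 4 control tumors, or 1 to 4, which were given to the control cultures because the other control tumors are numbered up to 6. The 14 m.12436 tumor columns are named high or low and a number, which is 60% or 40% in the study's source data, and were given to m.12436 because no other tumors are numbered up to 7. The 4 m.11944 60% culture columns carry a code that a heading of the source data pairs with these cells. These matches are inferences, and the counts could not check the mutation or heteroplasmy. Symbols, coordinates and exon lengths came from GENCODE (56017 of 56748 genes matched) on the same build, and promoter sequences from that genome. Counts were filtered by group and TMM-scaled, and the 18 tumors were fitted together with the quasi-likelihood test of edgeR (version 4.0.16), robust, in R 4.3.3, with Benjamini-Hochberg adjustment over all genes tested and calls at an adjusted p under 0.1. The 8 cultures were fitted alone. limma-voom (limma 3.58.1) and DESeq2 (version 1.42.0) were alternatives, and all were tested on simulated counts. Log2 CPM used a prior count of 2. Correlations and single differences used permutation tests. Nothing in the labels says that cultures came from separate experiments, so p-values there measure the spread between these samples.

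Same-numbered cultures deviated together (correlation of deviations 0.718 or more in all 4 pairs), so their numbers were taken as pairs. Named genes were the 8 members, pathway genes called in a tumor comparison or with the 2 smallest p-values of their list in m.12436 60% against control tumors, H2-Ea, H2-DMb2, Ptprc, called markers and the 10 genes most like H2-Ab1. A few of these genes and 1 of the 15 measures related to H2-Ab1 are not reported here. The members and lists were chosen with earlier results of these data known. Plasmacytoid dendritic cell markers stayed at 5.52 CPM or less in sum.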

Additional observations from a re-analysis of the deposited data

How the results depend on the processing

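In m.12436 60% against control tumors 0 members were called, and the count was 1 (Ctss) with DESeq2 and 0 to 1 when each tumor was left out. The 9 other planned settings gave 0. In m.12436 60% against 40% tumors it was 1 (Ctss) with DESeq2 and 0 under the other settings, each tumor left out included, and in m.12436 40% against control tumors 0 throughout. In the cultures it was 1 (H2-DMb1) with DESeq2 and 1 with the replicate block, and 0 when any culture was left out. Beyond that member, the block changed no member's call. Same-numbered tumors did not deviate together (mean correlation -0.156, -0.00582 and -0.0264 in the 3 group pairs), and a block for their number left 0 members called and called 178 genes in place of 374 in m.12436 60% against control tumors. All 8 members kept their side in control tumors against control cells under all settings.

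Of the other pathway genes, 0 were called in m.12436 60% against control tumors. The count was 4 with DESeq2, 2 with macrophage markers as a covariate, 1 with the replicate block, 1 with only the 2 groups, and 0 to 3 with a tumor left out. Of all genes these first 4 fits called 6.51%, 4.9%, 1.1% and 5.97%. In m.12436 60% against 40% tumors it was 2, and it became 5 with DESeq2, 1 with only the 2 groups, 0 without the filter, 0 with Ptprc as covariate, 0 at an adjusted p under 0.05, and 0 to 3 with a tumor left out. Of all genes the main fit called 1.81% and DESeq2 4.59%, and the fit with only the 2 groups called 293 of 15368. Over all genes tested, 374 were called in m.12436 60% against control tumors, 16 with Ptprc as covariate and 1056 with DESeq2. In m.12436 60% against 40% tumors 293 were called, 35 with Ptprc as covariate and 744 with DESeq2, and in the cultures 5, 84 with DESeq2 and 919 with the replicate block. The causes were not tested.

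With Ptprc as covariate the log2 fold changes in m.12436 60% against control tumors were -0.70 for H2-Aa, -0.61 for H2-Ab1, -0.67 for H2-Eb1, -0.63 for Cd74, -0.43 for Ciita, -0.30 for H2-DMa, -0.30 for H2-DMb1, -0.029 for Ctss, -0.061 for Cd83, -0.032 for Cd86, -0.11 for H2-DMb2, -0.024 for Ifngr1 and -0.046 for Jak2. In the same order the first 8 genes gave -0.18, -0.21, -0.20, -0.28, -0.00038, -0.10, -0.14 and -0.065 in m.12436 40% against control tumors. The first 7 gave -0.52, -0.39, -0.47, -0.36, -0.43, -0.19 and -0.16 in m.12436 60% against 40% tumors. Leaving out 1 tumor, the log2 fold change in m.12436 40% against control tumors ran from -0.043 to 0.63 for H2-Aa, -0.12 to 0.54 for H2-Ab1, -0.075 to 0.58 for H2-Eb1, -0.21 to 0.44 for Cd74, 0.053 to 0.80 for Ciita, -0.15 to 0.31 for H2-DMa, -0.11 to 0.36 for H2-DMb1 and -0.072 to 0.23 for Ctss, lowest without control tumor 3 and highest without control tumor 2. The r of H2-Ab1 with macrophage markers ran from 0.303 (without m.12436 60% tumor 5) to 0.520 and passed the threshold in 13 of 18 fits, and that with B cell markers ran from 0.277 to 0.578 and passed it in 2. The r of the other 13 measures stayed past it. With 4 control tumors and an SD near 0.91 on the log2 scale, precision was limited, and an estimate as high as 1.52 (Ciita without control tumor 2, adjusted p = 0.157) was not called.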
